A study of Mus musculus with 18 samples.

Results

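The BCL2 family was followed through 10 of its genes in macrophages grown from mouse bone marrow, each taken as the row of the deposited count table that carries its symbol. The 10 were found among 30530 genes, and each passed the filter on low counts that left 12741 genes for testing. They comprised 6 pro-survival genes (Bcl2a1a, Bcl2a1b, Bcl2a1d, Mcl1, Bcl2 and Bcl2l1), 3 BH3-only death genes (Bcl2l11, Bbc3 and Pmaip1) and the effector Bax.

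Polyadenylated RNA was sequenced from 6 groups of 3 libraries each, numbered by mouse. C57BL/6 (B6) cells were given 5 µM 25-hydroxycholesterol (25HC) for 18 h and 300 ng/mL Pam3CSK4 (PAM3), or 25HC alone, or PAM3 alone, or neither. Cells of Ch25h-/- mice, which lack the enzyme that makes 25HC from cholesterol, received no 25HC and were given PAM3 or left at rest. PAM3 mimics a bacterial lipoprotein and acts through Toll-like receptor 2. Within a genotype the same number marks the same animal, so the 4 B6 groups came from 3 mice and the 2 Ch25h-/- groups from 3 others. The stimulation time is labelled 18 for PAM3 and 0 at rest, with no unit. Whether resting cells were cultured equally long is not in the labels. An effect of PAM3 and one of time in culture thus cannot be told apart. The 25HC time is labelled 18 h with 25HC and 0 without, so the same holds for 25HC at rest. Both resting untreated groups are also titled 25-hydroxycholesterol control, and the untreated PAM3 groups are not. Whether that title stands for a vehicle is not in the labels. In such bulk samples, fewer cells of a kind and less RNA per cell cannot be told apart either.

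Proteins of the BCL2 family govern the permeability of the outer mitochondrial membrane. The pro-survival proteins BCL2, BCL-XL (gene Bcl2l1), MCL1 and A1 (the Bcl2a1 genes) bind and restrain the effectors BAX and BAK. BH3-only proteins such as BIM (Bcl2l11), PUMA (Bbc3) and NOXA (Pmaip1) occupy the groove of the pro-survival proteins, and NOXA binds mainly MCL1 and A1. Released effectors form pores through which cytochrome c escapes and caspases are activated. In macrophages and neutrophils A1 is known as a survival gene induced by NF-kB, and MCL1 as a protein of short life.

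Libraries held 14040513 to 150440297 counts, with the shallowest in resting Ch25h-/- cells and the deepest in untreated B6 cells with PAM3. Ch25h had 0 to 2 counts in each of the 6 Ch25h-/- libraries, against 76 to 660 counts in the 6 untreated B6 libraries. The 8 macrophage markers were detected in every library, with a summed level of 18837 to 58516 CPM (counts scaled to a common library size of 1e6). Lyz2 alone had 11043 to 38520 CPM, and the markers did not move together. Cd68 had 288 to 439 CPM with PAM3, against 1158 to 1811 CPM at rest. Emr1 had 5686 to 15381 CPM with PAM3, against 1275 to 3916 CPM at rest. Of the 5 T cell markers, Cd3e and Cd3g were at 0 in all 18 libraries, Cd3d and Cd8a stayed at or under 0.0686 CPM, and Cd4 had 0.185 to 56.0 CPM. Of the 5 B cell markers, Cd79b had 0.860 to 23.3 CPM and the other 4 stayed at or under 0.343 CPM. Replicate 2 of both resting untreated groups stood apart on the third principal component, at 75.6 in Ch25h-/- and 31.3 in B6, against -18.9 to 9.97 in the other 4 libraries of those groups. Leaving out both changed calls of Bcl2 and Bbc3 and of no other gene of the 10, and values without them are given for Bcl2, Bcl2l1 and Bbc3. Values below are CPM on library sizes scaled by TMM, fold changes are log2 with their standard error (SE), and a gene was called at an adjusted p below 0.05 in edgeR's quasi-likelihood test with Benjamini-Hochberg adjustment over 12741 genes.

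The PAM3 comparison asked how the family changes when macrophages meet a bacterial ligand. In untreated B6 cells, 8 of the 10 genes were called: the 3 Bcl2a1 copies and Bax rose, and Mcl1, Bcl2l11, Bbc3 and Pmaip1 fell. The 3 copies share much of their sequence, so here and below their calls are not independent of each other. The share called over all tested genes was 62.1%, with 31.3% higher and 30.8% lower. The median log2 fold change was -0.16 over the 10 genes and 0.00 over all tested genes. In 25HC-treated B6 cells 4 rose and 2 fell, where 58.9% of all tested genes were called, 28.5% higher and 30.4% lower. In Ch25h-/- cells 4 rose and 3 fell, where 62.0% were called, 29.9% higher and 32.1% lower.

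**Figure D1:**
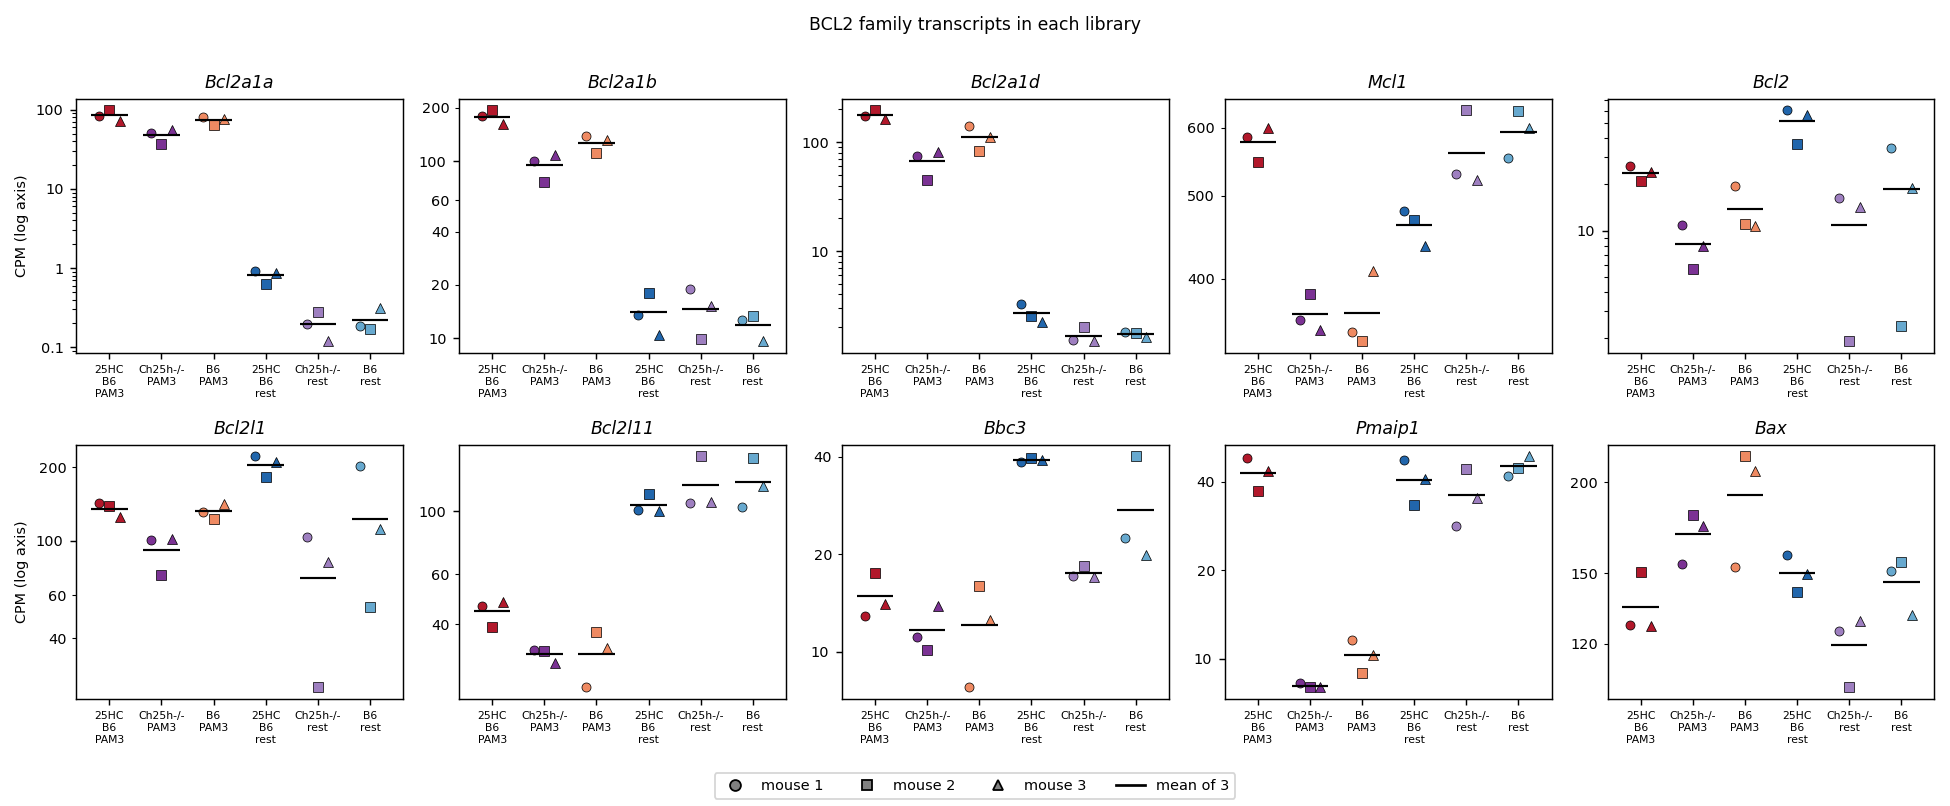
CPM of the 10 genes in each library (log axis), with PAM3 groups left of resting groups; symbols mark the mouse and lines the mean of 3. The 3 Bcl2a1 panels separate PAM3 from rest without overlap, and Pmaip1 is low in the PAM3 groups without 25HC and near its resting level in the one with it.

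The Bcl2a1 genes, which encode the A1 proteins, had the largest fold changes of the 10 genes with PAM3. Mice carry several copies on chromosome 9 (GRCm38): Bcl2a1d at 88723285 to 88731914 on the minus strand, Bcl2a1a at 88956900 to 88962419 and Bcl2a1b at 89199209 to 89207827, both on the plus strand. The fourth copy, Bcl2a1c at 114330135 to 114330578, is a shortened relative. The coding sequences of Bcl2a1a, Bcl2a1b and Bcl2a1d are 516 bases long without the stop codon and differ at 12 positions, so 97.7% of positions are the same in all 3 and the longest run shared by all is 217 bases. The start of each coding sequence is shown because 6 of the 12 differing positions, in capitals, lie in its first 80 bases.
Bcl2a1a (chr9:88957051-88957130, plus strand): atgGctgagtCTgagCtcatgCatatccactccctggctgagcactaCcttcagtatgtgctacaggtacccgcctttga
Bcl2a1b (chr9:89199360-89199439, plus strand): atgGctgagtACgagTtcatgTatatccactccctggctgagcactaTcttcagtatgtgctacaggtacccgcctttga
Bcl2a1d (chr9:88731640-88731719, minus strand): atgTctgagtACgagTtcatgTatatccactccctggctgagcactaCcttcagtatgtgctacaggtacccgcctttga

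Reads from the parts these copies share cannot be given to 1 copy with certainty. Of the 50-base stretches of its transcript, 31.0% were found in no other transcript for Bcl2a1a, 20.8% for Bcl2a1b, 20.5% for Bcl2a1d and 89.6% for Bcl2a1c. At 100 bases these shares were 56.5%, 43.2%, 45.3% and 100%. Neither the read length nor the treatment of multiply aligned reads is stated in the labels. Bcl2a1b also shares 401 exon bases with the predicted gene Gm29094 on the same strand, which had 749 counts in all libraries together. Of the 768 distinct 50-base stretches of Bcl2a1b, 442 were found in another copy and 353 in a gene outside the copies. The sum of the 4 copies is given beside each copy: it is free of how reads were split among them, but not of reads that were dropped, counted more than once or given to another gene.

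Summed over the 4 copies, Bcl2a1 reached 361, 259 and 322 CPM in untreated B6 cells with PAM3, against 14.7, 15.4 and 11.6 CPM at rest. In 25HC-treated B6 cells the sum was 438, 490.0 and 400.4 CPM with PAM3, against 17.8, 21.1 and 13.6 CPM at rest. In Ch25h-/- cells it was 227, 159 and 247 CPM with PAM3, against 20.7, 12.1 and 16.9 CPM at rest. Every PAM3 library lay above every resting library. The rise was 22.6-fold for untreated B6 (4.50 ± 0.24, SE, adjusted p = 2.2e-09) and 25.3-fold for 25HC-treated B6 (4.66 ± 0.24, adjusted p = 2.03e-09). For Ch25h-/- it was 12.7-fold (3.66 ± 0.23, adjusted p = 1.24e-08).

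The copies rose by different amounts. Bcl2a1a had 81.0, 63.8 and 77.5 CPM in untreated B6 with PAM3, against 0.185, 0.167 and 0.312 CPM at rest, a log2 change of 8.39 ± 0.26 (SE, adjusted p = 2.22e-11). Its resting values rest on 6, 12 and 15 counts, so the size of that fold is set by few reads. Bcl2a1d had 141, 83.9 and 111 CPM with PAM3, against 1.79, 1.77 and 1.62 CPM at rest (6.02 ± 0.26, adjusted p = 2.34e-10). Bcl2a1b, the copy that was highest at rest, had 138, 111 and 132 CPM with PAM3, against 12.6, 13.4 and 9.64 CPM at rest (3.41 ± 0.24, adjusted p = 2.89e-08). Bcl2a1c stayed under 1.2 CPM: it had 1.10, 0.569 and 0.844 CPM with PAM3, against 0.0618, 0.0139 and 0.0623 CPM at rest. Its rise was called too (4.24 ± 0.60, adjusted p = 2.17e-05), on 3 or fewer counts in each resting library. Bcl2a1c was also called in 25HC-treated B6 (5.16 ± 0.72, adjusted p = 2.33e-05) and in Ch25h-/- (3.94 ± 0.83, adjusted p = 0.000762).

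The same order of rises was measured in the other PAM3 comparisons. In 25HC-treated B6 the log2 changes were 6.72 ± 0.24 for Bcl2a1a, 6.06 ± 0.26 for Bcl2a1d and 3.67 ± 0.24 for Bcl2a1b. In Ch25h-/- they were 7.93 ± 0.30, 5.33 ± 0.27 and 2.69 ± 0.23 for the same copies. Each of these 6 values was called, with the highest adjusted p at 2.48e-07. The makeup of the pool differed accordingly. With PAM3, Bcl2a1b held 38.2% to 48.2% of Bcl2a1 counts, Bcl2a1d 28.6% to 41.3% and Bcl2a1a 18.2% to 24.6%. At rest Bcl2a1b held 76.4% to 91.2%, Bcl2a1d 7.40% to 18.5% and Bcl2a1a 0.707% to 6.40%. The ranges of PAM3 and resting libraries did not overlap for any of these 3 copies.

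**Figure D2:**
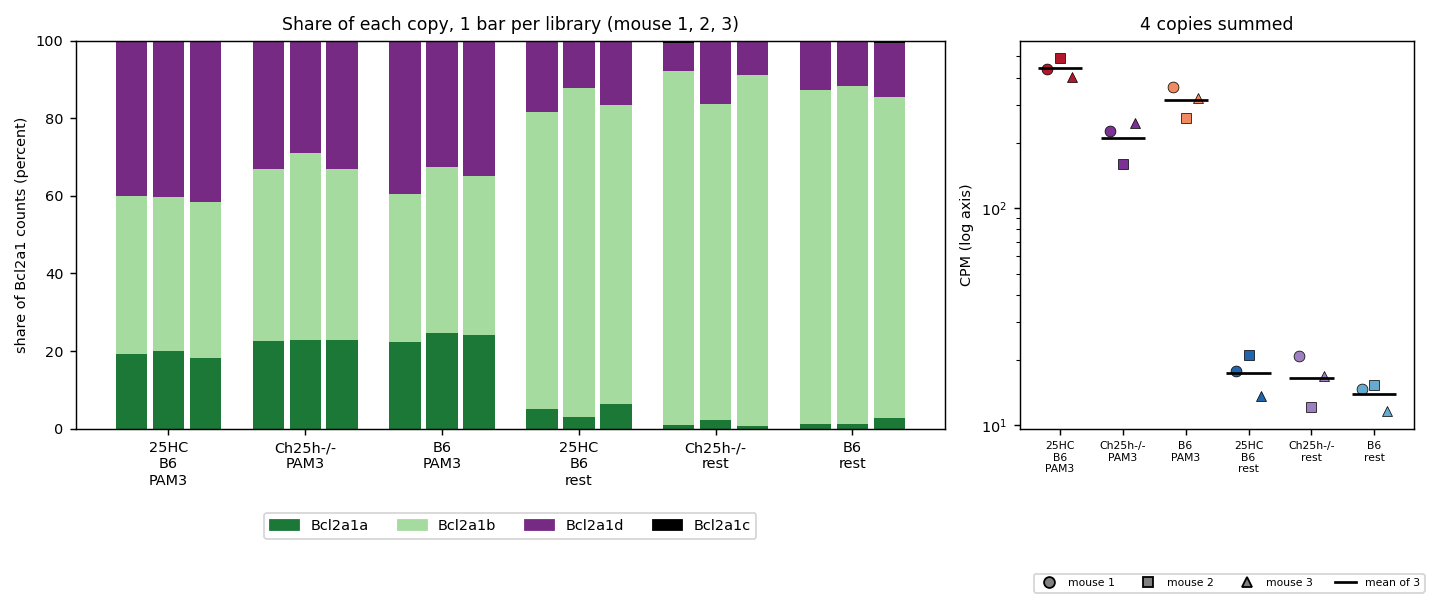
Left, share of each Bcl2a1 copy among Bcl2a1 counts in percent, 1 bar per library; right, CPM of the 4 copies summed (log axis), with lines at the mean of 3. Bcl2a1b takes 38.2% to 48.2% in PAM3 libraries and 76.4% to 91.2% in resting ones, and each PAM3 library exceeds each resting library in the sum.

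Since Bcl2a1 genes are also high in neutrophils, the 10 neutrophil markers were set beside this result. Their summed level was 210 to 217 CPM in untreated B6 with PAM3, against 42.5 to 88.3 CPM at rest, and 146 to 206 CPM in 25HC-treated B6 with PAM3, against 29.0 to 46.3 CPM at rest. In Ch25h-/- cells it was 179 to 243 CPM with PAM3, against 51.1 to 210 CPM at rest. Csf3r made up most of the sum in every library, at 25.3 to 219 CPM. Of the other markers, S100a8 had 2.96 to 5.91 CPM in untreated B6 with PAM3, against 0.958 to 1.95 CPM at rest, and Camp had 1.35 to 1.88 CPM with PAM3, against 0.0697 to 0.166 CPM at rest. S100a9 had 0.587 to 1.35 CPM in untreated B6 with PAM3, against 1.88 CPM or more at rest. The highest values of S100a8, S100a9, Ltf and Ngp, at 16.5, 27.2, 19.9 and 23.2 CPM, were all in replicate 2 of resting Ch25h-/- cells. Ly6g, Elane, Mpo and Cxcr2 stayed at or under 0.446 CPM, and Ly6g was at 0 in 12 of 18 libraries. The part of neutrophil transcripts in the Bcl2a1 values was not tested.

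The copies also share the sequence upstream of their starts, shown because Bcl2a1a, Bcl2a1b and Bcl2a1d rose together with PAM3. The stretch is identical over 142 bases in Bcl2a1a and Bcl2a1b, and Bcl2a1d matches at 135 of 142 aligned positions (95.1%). Over a shorter stretch, not shown, Bcl2a1c matches Bcl2a1a and Bcl2a1b at 73 of 76 aligned positions. Capitals mark the letters GAGGAA, present as a tandem pair in Bcl2a1a and Bcl2a1b and singly in Bcl2a1d. Sequences are from RefSeq (GRCm38.p6) and end 64 bases before the RefSeq start of Bcl2a1a and Bcl2a1d and 108 before that of Bcl2a1b.
Bcl2a1a (chr9:88956714-88956855, plus strand): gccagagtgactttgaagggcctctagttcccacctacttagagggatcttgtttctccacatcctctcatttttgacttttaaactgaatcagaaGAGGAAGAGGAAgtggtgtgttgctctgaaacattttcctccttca
Bcl2a1b (chr9:89199023-89199164, plus strand): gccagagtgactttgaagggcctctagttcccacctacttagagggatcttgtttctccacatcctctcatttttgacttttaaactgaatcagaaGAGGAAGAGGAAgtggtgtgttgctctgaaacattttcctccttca
Bcl2a1d (chr9:88731915-88732050, minus strand): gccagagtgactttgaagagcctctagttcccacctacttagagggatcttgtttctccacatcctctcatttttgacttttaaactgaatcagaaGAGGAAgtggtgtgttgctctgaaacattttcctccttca

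The window of 300 bases around each RefSeq start was searched on both strands for motifs chosen after reading these sequences. GAGGAAGT, of the type bound by the macrophage factor PU.1, was found in the windows of all 4 Bcl2a1 copies and in 3.20% of 32851 mouse windows. TGANTCA, the AP-1 motif, was found in those of Bcl2a1a, Bcl2a1b and Bcl2a1d and in 7.81% of all windows, and TGATGNAA, of the C/EBP-ATF type, in those of all 4 copies and in 3.97%. The NF-kB motif, present in 8.46% of all windows, was found in 1 of the 3 windows of Bcl2l1 and 1 of the 3 of Bbc3. The windows of Mcl1, Bcl2, Bcl2l11 and Bax held none of these 4 motifs, and Pmaip1 had no window. A match is a description of letters, not of binding.

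Per base of exon, the A1 copies stood among the most abundant family transcripts with PAM3. In CPM per kb of exon, Bcl2a1b had 218 ± 19.8 in 25HC-treated B6 with PAM3, 116.5 ± 20.4 in Ch25h-/- with PAM3 and 155 ± 17.5 in untreated B6 with PAM3 (SD, n = 3 each). That was the highest mean among the 10 genes in each of these groups, with no test between genes. Next came Bcl2a1d at 207 ± 18.8 in 25HC-treated B6, Bax at 108 ± 8.60 in Ch25h-/- and Bcl2a1d at 130 ± 33.2 in untreated B6 (SD). The rank of each copy depends on how reads were split among them. In the resting groups Mcl1 had the highest level per kb, at 135 ± 6.58 in 25HC-treated B6, 164 ± 17.5 in Ch25h-/- and 174 ± 11.1 in untreated B6, followed by Bax at 95.2 ± 5.59, 75.7 ± 8.27 and 92.6 ± 8.03 in the same groups (SD, n = 3 each). Bcl2a1a was the lowest of the 10 in each resting group, with 0.241 to 0.984 CPM per kb, and Bcl2 the lowest in each PAM3 group, with 0.890 to 2.60 CPM per kb. Exon length here is that of all annotated exons merged, which lowers the value of genes with long or alternative exons such as Bcl2 and Bcl2l11.

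Mcl1, on chromosome 3 at 95658788 to 95663176, encodes the pro-survival protein that NOXA targets. With PAM3 it fell in cells without 25HC and rose in cells with it. In untreated B6 it had 347, 338 and 408 CPM with PAM3, against 553, 628 and 600.3 CPM at rest (-0.70 ± 0.11, SE, adjusted p = 4.14e-05). In Ch25h-/- it had 358, 384 and 349 CPM with PAM3, against 530.4, 629 and 521 CPM at rest (-0.62 ± 0.11, adjusted p = 0.000132). In 25HC-treated B6 it had 586, 547 and 599 CPM with PAM3, against 480.2, 469 and 437 CPM at rest (0.32 ± 0.11, adjusted p = 0.0165). The groups did not overlap in any of the 3 comparisons. The rise in 25HC-treated cells missed the threshold without replicate 3 of either group (adjusted p = 0.0656 and 0.0569).

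Pmaip1, on chromosome 18 at 66458533 to 66465565, encodes NOXA and is known as a target of p53 and of the stress factor ATF4. It fell 4.39-fold with PAM3 in untreated B6, with 11.6, 8.98 and 10.3 CPM with PAM3, against 41.8, 44.8 and 48.9 CPM at rest (-2.13 ± 0.17, SE, adjusted p = 8.16e-08). In Ch25h-/- it had 8.26, 8.02 and 8.04 CPM with PAM3, against 28.3, 44.4 and 35.3 CPM at rest (-2.15 ± 0.17, adjusted p = 1.14e-07). In 25HC-treated B6 no such fall was measured: it had 48.1, 37.1 and 43.5 CPM with PAM3, against 47.5, 33.3 and 40.8 CPM at rest. That difference was 0.08 ± 0.16, with a 95% interval of -0.26 to 0.42 (adjusted p = 0.684).

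Bcl2l11, on chromosome 2 at 128126038 to 128162547, encodes BIM, which binds all pro-survival family members. It fell with PAM3 in each background. In untreated B6 it had 24.0, 37.5 and 33.0 CPM with PAM3, against 103, 155 and 123 CPM at rest (-2.01 ± 0.19, SE, adjusted p = 4.04e-07). In Ch25h-/- it had 32.5, 32.2 and 29.2 CPM with PAM3, against 107, 157 and 108 CPM at rest (-1.99 ± 0.19, adjusted p = 5.47e-07). In 25HC-treated B6 it had 46.4, 39.0 and 47.7 CPM with PAM3, against 101, 115 and 101 CPM at rest (-1.25 ± 0.18, adjusted p = 3.49e-05). The resting libraries lay above the PAM3 libraries in every background.

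Bbc3, on chromosome 7 at 16308393 to 16318205, encodes PUMA, a p53 target. It fell with PAM3 in untreated B6, with 7.76, 15.9 and 12.6 CPM with PAM3, against 22.4, 40.1 and 19.9 CPM at rest (-1.18 ± 0.26, SE, adjusted p = 0.00092). Mouse 2 was the highest of the 3 in both groups, and without replicate 2 of both resting untreated groups the difference was -0.79 (adjusted p = 0.00604). In 25HC-treated B6 it had 12.9, 17.5 and 14.1 CPM with PAM3, against 38.6, 39.5 and 39.1 CPM at rest (-1.40 ± 0.26, adjusted p = 0.000264). In Ch25h-/- it had 11.1, 10.1 and 13.9 CPM with PAM3, against 17.1, 18.4 and 17.1 CPM at rest. That difference, -0.58 ± 0.26, missed the threshold (adjusted p = 0.0644), passed it with the animal as a block (-0.59, adjusted p = 0.0222) and missed it without those replicates (-0.55, adjusted p = 0.0541).

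Bax, on chromosome 7 at 45461697 to 45466898, encodes the effector that forms the mitochondrial pore. It rose with PAM3 in Ch25h-/-, with 154, 180 and 174 CPM with PAM3, against 125, 104 and 129 CPM at rest (0.51 ± 0.13, SE, adjusted p = 0.00376). In untreated B6 it had 153, 217 and 207 CPM with PAM3, against 151, 155 and 131 CPM at rest (0.40 ± 0.13, adjusted p = 0.0154). Those groups overlapped, and the call was lost without resting replicate 3 or without PAM3 replicate 2 or 3 (adjusted p = 0.0558 to 0.0795) and with the other groups left out of the fit (0.0784). In 25HC-treated B6 it had 127, 151 and 127 CPM with PAM3, against 159, 141 and 150 CPM at rest, a difference of -0.15 ± 0.13 (adjusted p = 0.331).

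**Figure D3:**
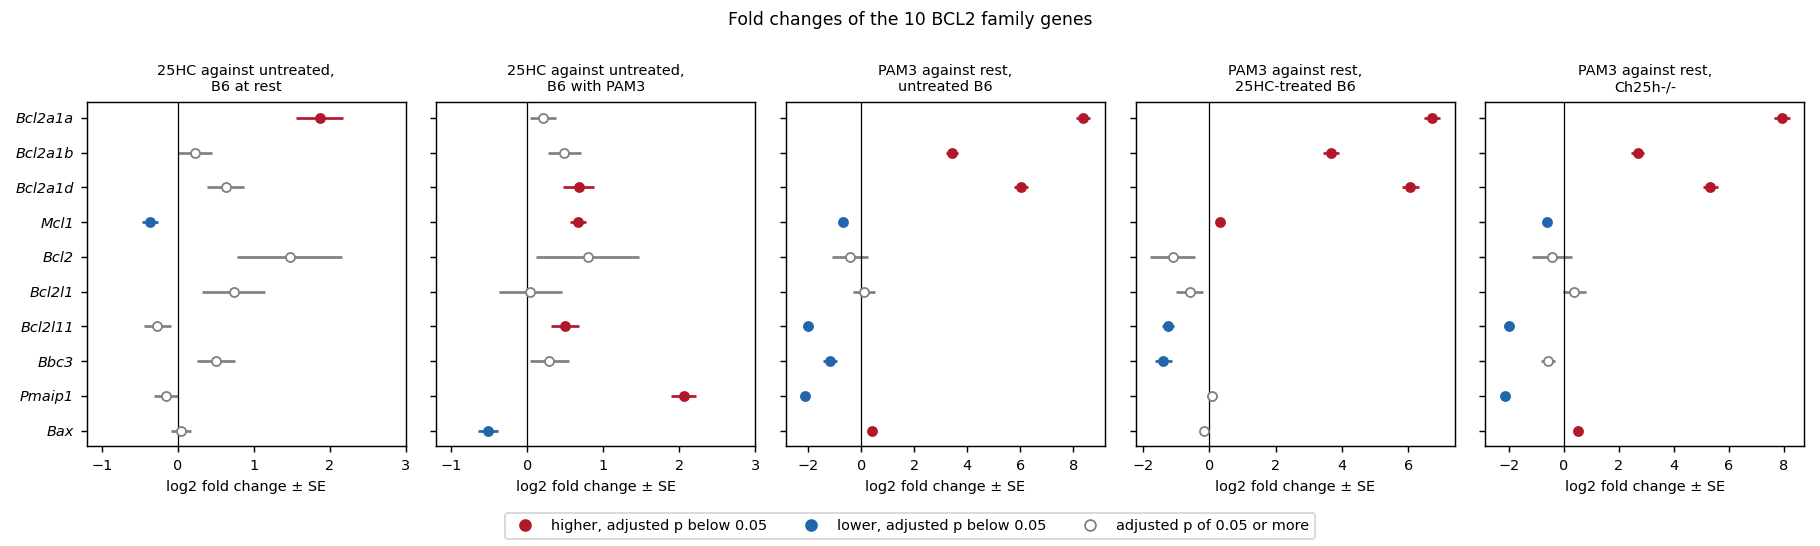
Log2 fold change with its SE for the 10 genes in 5 comparisons, 1 panel each; filled points passed an adjusted p of 0.05. The Bcl2a1 copies lie right of 0 in each PAM3 panel, and Pmaip1 moves from near -2.1 in the PAM3 panels without 25HC to 0.08 in the panel with it.

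The remaining pro-survival genes, Bcl2 on chromosome 1 (106538178 to 106714274) and Bcl2l1 on chromosome 2 (152780668 to 152831728), were not called for PAM3 in any background. Their spread in the untreated resting groups was wide, and mouse 2 was the lowest of each. Mice 1 and 3 of untreated B6 also differed at rest, at 34.4 and 18.9 CPM for Bcl2 and 203 and 112 CPM for Bcl2l1. Mouse 2 was the lowest in resting 25HC-treated B6 as well. Bcl2 had 10.9, 5.62 and 7.90 CPM in Ch25h-/- with PAM3, against 16.4, 1.92 and 14.2 CPM at rest, and 19.6, 10.99 and 10.7 CPM in untreated B6 with PAM3, against 34.4, 2.41 and 18.9 CPM at rest. Bcl2l1 had 101, 72.5 and 101 CPM in Ch25h-/- with PAM3, against 104, 25.2 and 82.0 CPM at rest, and 132, 123 and 142 CPM in untreated B6 with PAM3, against 203, 53.9 and 112 CPM at rest. The second value in each resting group is the lowest, and both come from the libraries that stood apart on the third component. In those 2 libraries the summed neutrophil markers were 210 CPM in Ch25h-/- and 88.3 CPM in B6, the highest of their groups. Cd4, which carried the T cell sum, brought that sum to 56.1 and 26.2 CPM there, with Cd3e and Cd3g at 0. The part of these differences in the Bcl2 and Bcl2l1 values was not tested.

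Without replicate 2 of both resting untreated groups, a setting chosen after seeing the data, Bcl2 was lower with PAM3 in untreated B6 (-0.96, adjusted p = 0.0176) and in Ch25h-/- (-0.91, adjusted p = 0.0333). With all libraries both Bcl2 differences were -0.43, with 95% intervals of -1.88 to 1.02 in B6 and -1.95 to 1.10 in Ch25h-/-. Bcl2l1 differed by 0.10 in untreated B6 and 0.38 in Ch25h-/- with all libraries (adjusted p = 0.845 and 0.447), and by -0.26 and -0.02 without those replicates (adjusted p = 0.296 and 0.942). In 25HC-treated B6, Bcl2 had 26.3, 20.97 and 24.2 CPM with PAM3, against 60.5, 36.5 and 56.7 CPM at rest. Bcl2l1 had 143, 138 and 125 CPM there with PAM3, against 222, 184 and 210 CPM at rest. Neither passed in the fit of all groups (adjusted p = 0.176 and 0.232), whose estimate of spread includes those libraries. Both passed with only these 2 groups fitted (-1.09, adjusted p = 0.00101, and -0.58, adjusted p = 0.000792). Leaving out replicate 2 of every group, also chosen after seeing the data, called Bcl2 in untreated B6 (-0.81, adjusted p = 0.0333) and not in Ch25h-/-. In 25HC-treated B6 it called Bcl2 (-1.21, adjusted p = 0.00384) and Bcl2l1 (-0.69, adjusted p = 0.0176).

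**Figure D4:**
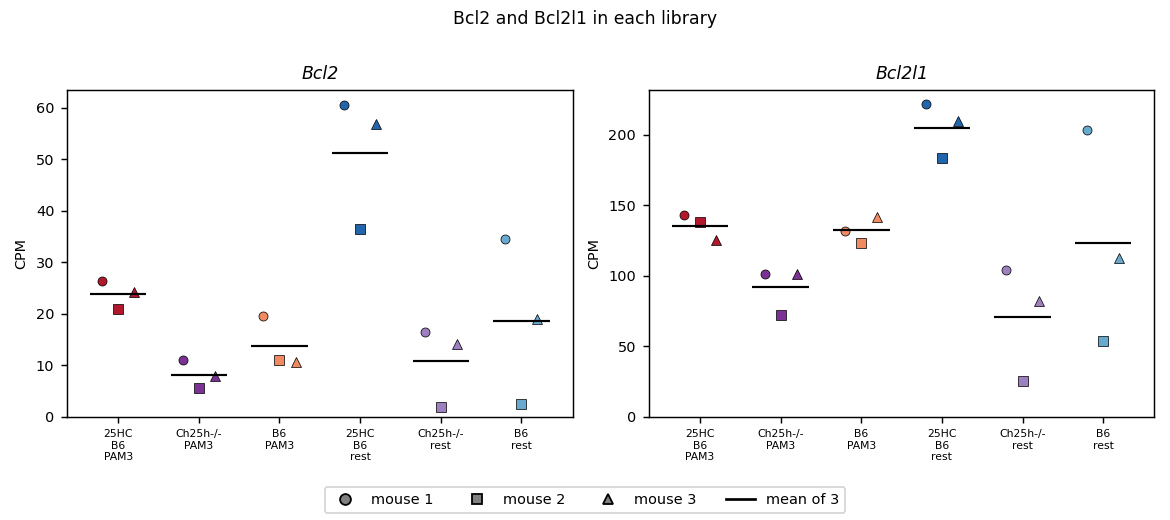
CPM of Bcl2 (left) and Bcl2l1 (right) in each library, with symbols for the mouse and lines at the mean of 3. The squares of mouse 2 are the lowest in the untreated resting groups of both genotypes, at 1.92 and 2.41 CPM for Bcl2 and 25.2 and 53.9 CPM for Bcl2l1.

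The next comparison asked what 25HC does to resting cells. Of the 10 genes 1 rose and 1 fell, where 26.2% of all tested genes were called, 14.8% higher and 11.4% lower. The median log2 fold change was 0.37 over the 10 and -0.01 over all tested genes. Mcl1 fell 1.29-fold, with 480.2, 469 and 437 CPM in 25HC-treated cells, against 553, 628 and 600.3 CPM in untreated cells (-0.36 ± 0.11, SE, adjusted p = 0.021). It was lower in 3 of 3 animals and the groups did not overlap, but the call was lost in 4 of the 6 fits that left out 1 library of these groups (adjusted p = 0.0526 to 0.0977).

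Bcl2a1a had 0.911, 0.637 and 0.869 CPM in 25HC-treated cells, against 0.185, 0.167 and 0.312 CPM in untreated cells (1.87 ± 0.31, SE, adjusted p = 0.000772). It was higher in 3 of 3 animals, on 23, 17 and 27 counts in 25HC-treated cells and 6, 12 and 15 in untreated cells. Bcl2a1d had 3.29, 2.51 and 2.25 CPM with 25HC, against 1.79, 1.77 and 1.62 CPM without (0.63 ± 0.24, adjusted p = 0.0689). The sum of the copies, with 17.8, 21.1 and 13.6 CPM in 25HC-treated cells against 14.7, 15.4 and 11.6 CPM in untreated cells, was not called (0.33 ± 0.21, adjusted p = 0.266). Bcl2a1b, which made up 76.4% to 84.75% of the 25HC-treated sum and 82.9% to 87.3% of the untreated one, differed by 0.23 ± 0.22 (adjusted p = 0.467).

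Bcl2 had 60.5, 36.5 and 56.7 CPM in resting 25HC-treated cells, against 34.4, 2.41 and 18.9 CPM in untreated cells. It was higher in 3 of 3 animals and the groups did not overlap, yet the test over all libraries did not call it (1.47 ± 0.69, SE, adjusted p = 0.127). It was called with the animal as a block (1.75, adjusted p = 0.031) and, at a smaller difference, without replicate 2 of both resting untreated groups (0.94, adjusted p = 0.0453). Bbc3 had 38.6, 39.5 and 39.1 CPM with 25HC, against 22.4, 40.1 and 19.9 CPM without, and was higher in 2 of 3 animals (0.51 ± 0.25, adjusted p = 0.147). The block and the fit without those replicates called it too (0.58, adjusted p = 0.0378, and 0.89, adjusted p = 0.0113). Bcl2l1 had 222, 184 and 210 CPM with 25HC, against 203, 53.9 and 112 CPM without (0.74 ± 0.42, adjusted p = 0.206), and differed by 0.38 without those replicates (adjusted p = 0.189). Differences of Bcl2l11, Pmaip1 and Bax lay between -0.27 and 0.04, each with overlapping groups. Leaving out replicate 2 of every group called Bcl2 (1.14, adjusted p = 0.0103), Bbc3 (0.88, adjusted p = 0.00334) and Bcl2a1d (0.69, adjusted p = 0.0208). Bcl2l1 was not called there.

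With PAM3 present, 25HC went with higher levels of 4 of the 10 genes and a lower level of 1. Over all tested genes 45.1% were called, 21.5% higher and 23.6% lower. The median log2 fold change was 0.49 over the 10 and -0.04 over all tested genes. Pmaip1 was 4.17-fold higher, with 48.1, 37.1 and 43.5 CPM in 25HC-treated cells with PAM3, against 11.6, 8.98 and 10.3 CPM in untreated cells with PAM3 (2.06 ± 0.17, SE, adjusted p = 6.46e-07). Mcl1 was 1.58-fold higher, with 586, 547 and 599 CPM against 347, 338 and 408 CPM in the same groups (0.66 ± 0.11, adjusted p = 0.000145). Neither gene's groups overlapped, and neither lost its call under any of the 13 other settings.

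Bcl2a1d had 174, 197 and 165 CPM in 25HC-treated cells with PAM3, against 141, 83.9 and 111 CPM in untreated cells with PAM3 (0.67 ± 0.20, SE, adjusted p = 0.0125). This call was lost without replicate 2 of the untreated cells, the lowest library (0.50, adjusted p = 0.0697). Bcl2a1b had 179, 193 and 161 CPM with 25HC, against 138, 111 and 132 CPM without (0.49 ± 0.22, adjusted p = 0.0766), and the sum of copies had 438, 490.0 and 400.4 CPM, against 361, 259 and 322 CPM (0.50 ± 0.21, adjusted p = 0.0633). Both were called with the animal as a block (adjusted p = 0.0243 and 0.0174). Bcl2a1a had 84.1, 98.7 and 73.0 CPM with 25HC, against 81.0, 63.8 and 77.5 CPM without, with overlapping groups (0.20 ± 0.17, adjusted p = 0.356).

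Bcl2l11 had 46.4, 39.0 and 47.7 CPM in 25HC-treated cells with PAM3, against 24.0, 37.5 and 33.0 CPM in untreated cells with PAM3 (0.49 ± 0.18, SE, adjusted p = 0.0373). That call was lost in 4 of the 6 fits that left out 1 library of these groups (adjusted p = 0.0638 to 0.148). Bax was lower, with 127, 151 and 127 CPM with 25HC, against 153, 217 and 207 CPM without (-0.51 ± 0.13, adjusted p = 0.00515). It was lower in 3 of 3 animals and kept its call in 13 of 13 other settings. Bax shares 192 exon bases with the predicted gene Gm45808 on the same strand, for which the table holds no row used here. Bcl2, at 26.3, 20.97 and 24.2 CPM with 25HC against 19.6, 10.99 and 10.7 CPM without, was higher in 3 of 3 animals and not called (0.79 ± 0.68, adjusted p = 0.361). Bbc3 and Bcl2l1 had overlapping groups and differences of 0.29 ± 0.25 and 0.04 ± 0.42.

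Whether 25HC altered the response to PAM3 was tested by the interaction, the log2 response to PAM3 in 25HC-treated B6 minus that in untreated B6. It was called for 5 of the 10 genes, 3 higher and 2 lower, where 28.3% of all tested genes were called, 12.5% higher and 15.8% lower. Pmaip1 had an interaction of 2.22 ± 0.23 (SE, adjusted p = 6.53e-05): it fell by 2.13 with PAM3 in untreated cells and differed by 0.08 in 25HC-treated cells. Mcl1 had 1.03 ± 0.15 (adjusted p = 0.000497), with responses of 0.32 with 25HC and -0.70 without. Its 25HC-treated libraries with PAM3, at 547 to 599 CPM, lay within the 553 to 628 CPM of untreated resting cells or just below. Bcl2a1a had -1.67 ± 0.35 (adjusted p = 0.00408) and responses of 6.72 with 25HC and 8.39 without. Its 25HC-treated level exceeded the untreated one by 1.87 at rest and by 0.20 with PAM3. These 3 interactions were called under each of the 20 other settings run.

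Bcl2l11 had an interaction of 0.76 ± 0.26 (adjusted p = 0.0373) and Bax one of -0.55 ± 0.19 (adjusted p = 0.0376). Each lost its call in 8 or 7 of the 12 fits that left out 1 library, with adjusted p of 0.058 to 0.0874 for Bcl2l11 and 0.068 to 0.101 for Bax. Bax also lost it with no filter on low counts (0.102) and with only these 4 groups fitted (0.0512). The sum of Bcl2a1 copies had 0.16 ± 0.30 (adjusted p = 0.706), and the other 5 genes were not called, with values from -0.70 for Bcl2l1 to 0.26 for Bcl2a1b.

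**Figure D5:**
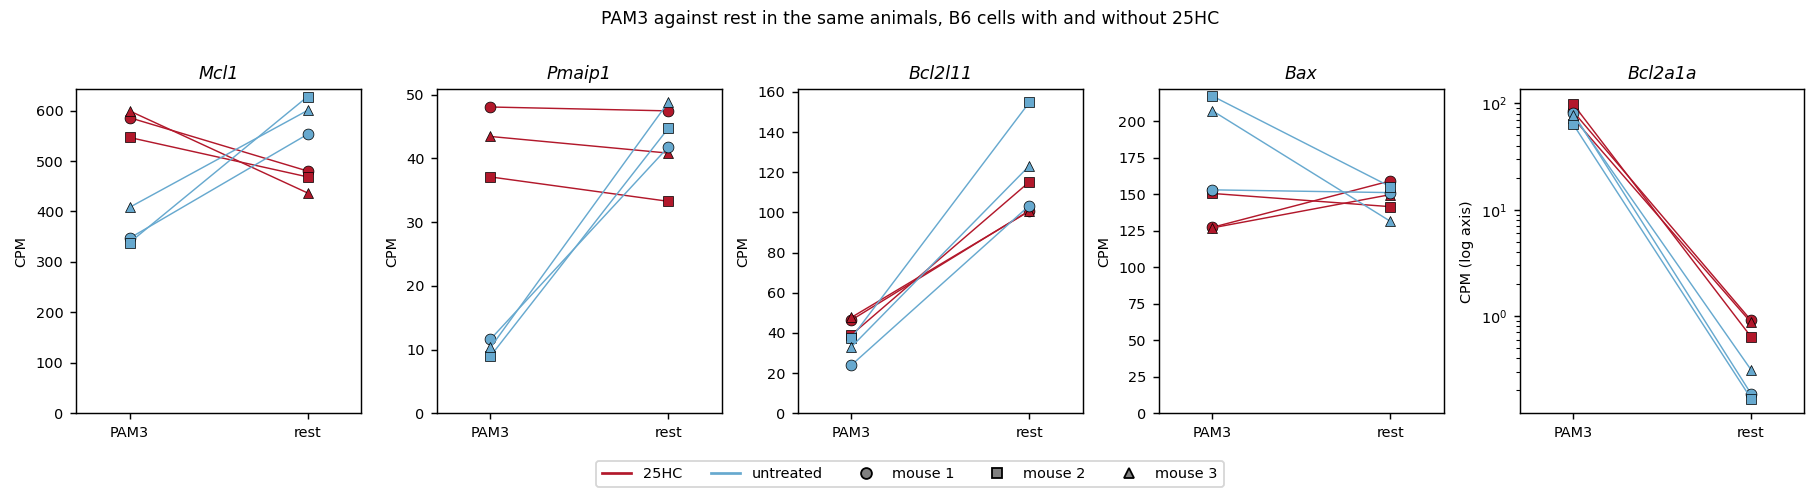
CPM of 5 genes in B6 cells with PAM3 and at rest, with a line joining the libraries of 1 animal; red lines are 25HC-treated and blue lines untreated cells, and the Bcl2a1a axis is logarithmic. For Mcl1 the red lines are higher with PAM3 and the blue lines lower, and for Pmaip1 the red lines are nearly level while the blue ones lie at 8.98 to 11.6 CPM with PAM3.

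Loss of Ch25h asked whether the cells' own 25HC mattered. None of the 10 genes was called at rest, where edgeR called 1 of all tested genes (0.00785%), a lower one, or with PAM3, where it called 22 (0.173%; 0.0471% higher and 0.126% lower). At an unadjusted p under 0.05 there were 2 of the 10 and 704 of all genes at rest, and 2 of the 10 and 1784 of all genes with PAM3. DESeq2 called 21 genes at rest, none of them among the 10, and 404 with PAM3, among them Bcl2a1d (-0.72, adjusted p = 0.0472). The interaction of genotype and PAM3 called 0 of all tested genes (0%) in edgeR and 2 in DESeq2, with 598 genes and 1 of the 10 under an unadjusted p of 0.05.

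With PAM3, the 3 A1 copies had lower means in Ch25h-/- cells, and none of them was called. Their groups did not overlap, but how many of all tested genes did the same was not counted. The copies also share reads. Bcl2a1d had 74.4, 45.4 and 80.7 CPM in Ch25h-/-, against 141, 83.9 and 111 CPM in B6 (-0.75 ± 0.20, SE, adjusted p = 0.111, 95% interval -1.17 to -0.32). Bcl2a1a had 51.5, 36.5 and 56.3 CPM in Ch25h-/-, against 81.0, 63.8 and 77.5 CPM in B6 (-0.62 ± 0.17, adjusted p = 0.117, 95% interval -0.99 to -0.25). Bcl2a1b had 100.2, 76.6 and 109 CPM in Ch25h-/-, against 138, 111 and 132 CPM in B6 (-0.41 ± 0.22, adjusted p = 0.403). The sum differed by -0.57 ± 0.21 (adjusted p = 0.213). A p above the threshold does not show that the genotypes were alike. Without replicate 2 of every group, Bcl2a1a and Bcl2a1d were called (-0.56, adjusted p = 0.0282, and -0.70, adjusted p = 0.0278).

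Mcl1 with PAM3 had 358, 384 and 349 CPM in Ch25h-/- against 347, 338 and 408 CPM in B6, with overlapping groups and a 95% interval of the difference of -0.23 to 0.22. Bcl2l11 had an interval of -0.40 to 0.38 and Bbc3 of -0.60 to 0.49 with PAM3. Pmaip1 was 8.26, 8.02 and 8.04 CPM in Ch25h-/- against 11.6, 8.98 and 10.3 CPM in B6 (-0.34 ± 0.17, SE, adjusted p = 0.37). At rest, Bax had 125, 104 and 129 CPM in Ch25h-/- against 151, 155 and 131 CPM in B6 (-0.29 ± 0.13, adjusted p = 0.89), and Bbc3 17.1, 18.4 and 17.1 CPM against 22.4, 40.1 and 19.9 CPM (-0.65 ± 0.26, adjusted p = 0.853). Without replicate 2 of both groups the Bbc3 difference was -0.31. At rest, Bax and Bbc3 were the genes of the 10 whose groups did not overlap, and neither was called. Overlap was not counted over all tested genes. Resting Bcl2 differed by -0.75 ± 0.70 (adjusted p = 0.985) and by -0.80 without those replicates, and resting Bcl2l1 by -0.80 ± 0.42 (adjusted p = 0.904) and by -0.76 without them. With PAM3, Pmaip1 and Bcl2l1 did not overlap either, and Bcl2l1 had 101, 72.5 and 101 CPM in Ch25h-/- against 132, 123 and 142 CPM in B6 (-0.53 ± 0.42, adjusted p = 0.608).

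The order of the 6 groups differed among the genes. Bcl2a1a, Bcl2a1b and Bcl2a1d shared the same first 3 groups, 25HC-treated B6 with PAM3, untreated B6 with PAM3 and Ch25h-/- with PAM3. Of the steps between these 3 groups, that of Bcl2a1d from 25HC-treated to untreated B6 was called. Mcl1 was highest in untreated B6 at rest (594 ± 37.8 CPM), followed by 25HC-treated B6 with PAM3 (577 ± 27.4) and Ch25h-/- at rest (560.1 ± 59.8), which did not differ from each other in neighbouring pairs (SD, n = 3 each). 25HC-treated B6 at rest (462 ± 22.5 CPM) lay below these, and untreated B6 and Ch25h-/- with PAM3 were lowest (365 ± 38.1 and 364 ± 18.5 CPM). Pmaip1 had 4 groups from 36.0 ± 8.05 to 45.1 ± 3.53 CPM with no called step between neighbours, then a called step (adjusted p = 4.01e-07) to the 2 groups with PAM3 and no 25HC. Bax had no called step between any neighbouring groups, from 192 ± 34.6 CPM in untreated B6 with PAM3 to 119 ± 13.0 CPM in Ch25h-/- at rest.

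The genes with the pattern most like a member's, by Pearson's r of log2 CPM over the 18 libraries, were Sod2 for Bcl2a1a (r = 0.994), Cwc27 for Bcl2a1b (0.982) and Irak3 for Bcl2a1d (0.992). For Mcl1 it was Aldh3a2 (0.958), for Bcl2l11 N4bp3 (0.986), for Pmaip1 Zbtb10 (0.977) and for Bbc3 Arhgef1 (0.952). For Bcl2 it was Mcu (0.946), for Bcl2l1 Tnfsf9 (0.937) and for Bax Mpv17l2 (0.945). The 18 values share their animals and the split by PAM3, so these are descriptions. Ranked on the 6 group means, at most 1 of the 3 nearest genes was the same for any member.

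The other genes of the pathway are described by list. Of 14 further BCL2 family genes 9 were tested, and with PAM3 in untreated B6 4 rose and 2 fell, where 31.3% of all tested genes were higher and 30.8% lower, with a median of 0.35 against 0.00 over all tested genes. Bcl2l2, which encodes the pro-survival BCL-W, rose in 25HC-treated B6 (64.5 ± 3.14 CPM with PAM3 and 36.7 ± 2.52 CPM at rest), in Ch25h-/- (46.1 ± 2.46 and 29.4 ± 2.06 CPM) and in untreated B6 (55.6 ± 6.21 and 33.2 ± 1.62 CPM), each mean with its SD and n = 3. Bmf, a BH3-only gene, fell in all 3, with log2 changes of -1.82 ± 0.49 in 25HC-treated B6, -2.42 ± 0.50 in Ch25h-/- and -2.20 ± 0.49 in untreated B6. Bid, the BH3-only gene cut by caspase-8, had 28.5 ± 1.53 CPM in 25HC-treated B6 with PAM3 and 49.5 ± 8.82 CPM in untreated B6 with PAM3 (SD, n = 3 each), and fell by 0.80 with 25HC there (adjusted p = 0.01). At rest 1 of the 9 was higher with 25HC, Bcl2l13 (0.34 ± 0.12, adjusted p = 0.0482). Bak1, the other effector, was called for the interaction of 25HC and PAM3 (-0.66 ± 0.23, adjusted p = 0.0448), the same sign as Bax.

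Downstream, the 13 genes of the apoptosome and caspases were all tested. At rest 4 were lower with 25HC and none higher, among them Casp9 (-0.46 ± 0.09) and Casp2 (-0.45 ± 0.11). The background there was 11.4% lower. With PAM3 present 2 were higher with 25HC and 4 lower, against backgrounds of 21.5% and 23.6%, among them Aifm1 (0.69 ± 0.12) and Casp9 (-0.66 ± 0.09). With PAM3 6 rose and 6 fell in untreated B6, against 31.3% and 30.8% of all tested genes. Casp2 fell there by 1.65, and Diablo and Cycs, whose products leave the mitochondrion in apoptosis, rose by 0.72 ± 0.11 and 1.80 ± 0.38 on the log2 scale. Of the 9 inhibitor of apoptosis genes, 3 rose and 3 fell with PAM3 in untreated B6, a total close to the 62.1% called over all tested genes. Birc3 (cIAP2), an NF-kB target, had 339.8 ± 29.3 CPM with PAM3 and 75.1 ± 24.7 CPM at rest, while Birc5 (survivin), which is tied to cell division, had 2.30 ± 0.402 CPM with PAM3 and 41.7 ± 13.3 CPM at rest (SD, n = 3 each). Naip2, which encodes a sensor of bacterial secretion proteins in the inflammasome rather than an inhibitor of caspases, was higher with 25HC in PAM3-treated cells (349.8 ± 43.1 CPM, against 126 ± 19.7 CPM in untreated cells with PAM3). Naip genes are near-identical copies, so their counts are uncertain.

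Among 8 genes of the death receptor arm, 4 rose and 1 fell with PAM3 in untreated B6, again close to the 62.1% of all tested genes. Cflar encodes the caspase-8 inhibitor FLIP. With PAM3 it rose by 1.86 ± 0.18 in 25HC-treated B6, 1.90 ± 0.18 in Ch25h-/- and 1.86 ± 0.18 in untreated B6. Tnfrsf1a, the TNF receptor 1 gene, was higher with 25HC at rest (0.38 ± 0.12) and lower with it under PAM3 (-0.42 ± 0.12), and its interaction was called (-0.79 ± 0.17, adjusted p = 0.0039). Of 17 tested genes for transcription factors known to act on the family, 6 rose and 1 fell with 25HC at rest, and 9 rose and 4 fell with 25HC under PAM3, against the backgrounds of 14.8% and 11.4%, and 21.5% and 23.6%. Atf4 had 349 ± 60.4 CPM in resting 25HC-treated cells and 106 ± 20.3 CPM in untreated ones, and Ddit3, which encodes CHOP, 118 ± 15.5 and 58.9 ± 14.3 CPM in the same groups (SD, n = 3 each). Rela and Nfkb1, the NF-kB subunit genes, were higher with 25HC under PAM3 by 0.93 ± 0.09 and 0.85 ± 0.11. Of 15 tested p53 targets 3 rose and 7 fell with 25HC at rest, where 14.8% of all tested genes were higher and 11.4% lower. Under PAM3 3 rose and 6 fell with 25HC, against 21.5% higher and 23.6% lower. Sesn1 fell in both (-2.19 ± 0.37 and -3.01 ± 0.38), and Plk2 and Mdm2 rose under PAM3 (1.92 ± 0.23 and 0.87 ± 0.14). Trp53 itself fell with PAM3 in 25HC-treated cells (-0.74 ± 0.11).

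Of 8 genes known to control the turnover of MCL1 protein, edgeR called 0 with 25HC at rest, where 26.2% of all tested genes were called. At an unadjusted p below 0.05 there were 0 of the 8 and 4985 of all 12741 tested genes. Under PAM3 2 were higher with 25HC and 1 lower, against backgrounds of 21.5% and 23.6%. The lowest log2 change of the 8 there was -2.27. Usp9x, which encodes a deubiquitinase that stabilises MCL1, was higher with 25HC under PAM3 (439 ± 64.4 CPM, against 252 ± 98.4 CPM without, SD, n = 3 each). Fbxw7, a ubiquitin ligase gene, was higher by 0.29 ± 0.10 in the same comparison. With PAM3, Fbxw7 fell in untreated B6 (-0.56 ± 0.10) and Ch25h-/- (-0.61 ± 0.10). Ube2c, which is also tied to cell division, had log2 changes of -6.49 in 25HC-treated B6, -3.70 in Ch25h-/- and -4.39 in untreated B6, each called. Between genotypes, edgeR called 0 of the 79 tested genes of the 7 further lists at rest, where 7 had an unadjusted p below 0.05, and 0 with PAM3, where 9 did. RNA levels do not give the amount or the life of MCL1 protein, which was not measured in these files.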

How the data were processed

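RNA was measured in 18 libraries of macrophages grown from mouse bone marrow. The authors deposited raw read counts per gene for 30530 genes. The submitters' processing notes name FastQC 0.11.9, GSNAP, featureCounts of Subread 1.5.2 and edgeR 3.26.8, and the build GRCm38 (mm10). The labels do not state how strand and multiply aligned reads were treated when counting.

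Here the tools were R 4.3.3 with edgeR 4.0.16, DESeq2 1.42.0 and limma 3.58.1, and Python 3.11.15. Genes kept by filterByExpr were scaled by TMM and fitted with 1 mean per group in all 18 libraries. The robust quasi-likelihood F test was two-sided, with Benjamini-Hochberg adjustment over 12741 genes, and the SE is the absolute log2 fold change over the square root of F. The biological coefficient of variation was 0.192. The number of counts limits the precision of low genes such as Bcl2a1a at rest. The script was tested on simulated counts.

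The 10 genes, the 7 further lists and the tests were chosen with earlier results of these data known. Named genes were the 10 members whatever their values and, of each list, called genes among the 4 of smallest adjusted p. List members are described by counts, with no test of a list. Gene positions, exon lengths and coding sequences came from GENCODE M21, and promoters from RefSeq.

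Within a genotype the numbers are animals. In deviations from group means, same-numbered libraries of 25HC-treated and untreated B6 correlated at r = 0.448, 0.581 and 0.348 at rest. With PAM3 these were 0.406, 0.377 and -0.162. Between PAM3 and rest r was 0.226, 0.306 and -0.0777 in untreated B6 and 0.211, 0.196 and 0.114 in 25HC-treated B6. In Ch25h-/- it was 0.193, 0.242 and 0.197. Across genotypes, where the animals differ, r was 0.327 to 0.705 at rest and 0.0949 to 0.459 with PAM3. In the main fit the genotypes were not taken as paired. The mouse number as a block was run as an alternative, both at rest and with PAM3. By r, the animal and another factor shared by number cannot be told apart, and the main fit held no block. With the number as a block at rest, 14 genes were called in place of 1, none of them a family member. No 2 libraries of a group were duplicates. The labels name separate mice but not separate experiments.

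Alternatives were DESeq2's size factors or Wald test, another filter (at 1 CPM) or none, a fit of the compared groups alone, leaving out each library, and a block for the animal or mouse number.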

Additional observations from a re-analysis of the deposited data

Results flagged for a closer look

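By the interaction term of edgeR's quasi-likelihood test, the response to PAM3 differed between 25HC-treated and untreated B6 cells for 5 of the 10 genes. The term was called for 28.3% of all tested genes. The term was 2.22 for Pmaip1 (adjusted p = 6.53e-05), 1.03 for Mcl1 (0.000497) and 0.76 for Bcl2l11 (0.0373). It was -1.67 for Bcl2a1a (0.00408) and -0.55 for Bax (0.0376). Bcl2l11 and Bax lost the call in 8 and 9 of the 20 other settings. Bcl2a1a had few counts at rest, and for the summed Bcl2a1 copies the term was 0.16 (0.706). Pmaip1 and Mcl1 are partners as proteins, NOXA binding MCL1, and both had the higher RNA level with 25HC under PAM3, in 3 of 3 animals each.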

How the results depend on the processing

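Of 1350 values of the 10 genes under other settings, 1216 kept sign and side of the threshold, 74 changed sign but were called in neither fit, 33 lost a call, 27 gained one and 0 reversed a called direction. Under totals without TMM scaling, 10 of 60 group means in CPM moved by more than 1 SD. Without replicate 2 of both resting untreated groups, or of every group, settings chosen after seeing the data, 25HC at rest called 4 or 5 of the 10 genes, and the second setting called 5099 genes. The animal as a replicate block called 4 of the 10 there, and fitting only the compared groups called 1 of the 10 and 2205 genes. The summed Bcl2a1 copies passed for 25HC with PAM3 with the animal as block (0.49), with only the compared groups (0.52) and in DESeq2 (0.50). For Ch25h-/- at rest, genes called were 14 with the mouse number as block, 0 with only the compared groups, 2 without replicate 2 of the resting untreated groups, 2 without it in every group and 21 in DESeq2. For Ch25h-/- with PAM3 they were 13 with no filter, 368 with the mouse number as block, 0 with only the compared groups, 386 without replicate 2 of every group and 404 in DESeq2. Of the 10 genes, 1 was called there with the block, 2 without replicate 2 and 1 in DESeq2. The interaction of genotype and PAM3 called 2 genes in DESeq2. The cause of these changes was not tested.

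Leaving out 1 library gave 1554 to 3790 genes and 1 to 4 of the 10 for 25HC at rest, with 1554 without replicate 1 of the 25HC-treated cells, 1624 without their replicate 3 and 2109 without untreated replicate 3. The summed copies ran from 0.38 to 0.61 for 25HC with PAM3, called without untreated replicate 1 (adjusted p = 0.0451). Genes called ran from 0 to 4 for Ch25h-/- at rest and from 1 to 248 for Ch25h-/- with PAM3, with 248 without Ch25h-/- replicate 1 and 85 without B6 replicate 2. The interaction of 25HC and PAM3 had 2326 to 4487 genes and 3 to 5 of the 10. Low counts limit Bcl2a1a at rest, and shared sequence limits the Bcl2a1 copies and, through reads dropped, counted more than once or given to other genes, their sum.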
